A study of Mus musculus with 10 samples.

Results

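The genes described are 10 matricellular protein genes of the mouse, namely the tenascin genes Tnc and Tnxb, the thrombospondin genes Thbs1, Thbs2, Thbs3 and Thbs4, and Postn (periostin), Sparc, Spp1 (osteopontin) and Vcan (versican). They were chosen by name, as families of secreted proteins, with earlier results of these data known. All 10 were found among the 27151 genes of the table. The RNA came from C57BL/6J tongues after exposure of the mice to 4NQO, a chemical carcinogen of the mouth. Both groups carry this exposure, so neither is an unexposed tongue. Of the 10 libraries, 6 are from mice given SP2509, an inhibitor of the histone demethylase LSD1, and 4 are from mice given vehicle. The titles of these 6 carry the name SP2509h, whose final letter the labels leave unexplained. The sources used here give no age, dose or duration.

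Matricellular proteins are secreted into the matrix between cells, but they act on cells more than they carry load. They bind collagens, fibronectin, growth factors, proteases and integrins, and so adjust how cells adhere, migrate and read growth factor signals. Many are low in resting adult tissue and high at wound edges, in tendon and in the stroma around tumours, where fibroblasts, epithelial cells, muscle and macrophages can all be sources. In whole tongue RNA, fewer cells of a type and less RNA per cell cannot be told apart.

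The values are normalised reads, that is read counts divided by 1 size factor per library. Depth was 15748571 to 19375555 whole reads in SP2509 libraries and 9180844 to 14768955 in vehicle libraries. Mitochondrial genes took 24.0% to 32.2% of the reads in SP2509 libraries and 35.3% to 52.1% in vehicle libraries, and beyond a rescaling that leaves those genes out, given below, the part of this difference in the results was not tested. SP2509 replicates 1 and 2 stood far closer to each other than libraries of 1 group usually did, and so did replicates 4 and 5. Each of those pairs was therefore averaged to 1 unit, and SP2509 means and SDs are over 4 units. Tests were run over the 10 libraries and repeated with the pairs merged. Replicates 4 and 5 also held lingual gland RNA, with 330329 and 341434 normalised reads summed over 6 gland markers, against 847 or fewer in every other library. Keratin and skeletal muscle markers were abundant in all 10 libraries, which are labelled tongue.

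The starts of 3 member genes are shown. Tnc had the largest difference and Thbs4 the next largest. Tnxb itself hardly differed (log2 fold change 0.06) and is shown as the tenascin set against Tnc in a ratio. The sequences are RefSeq windows on GRCm38.p6, with 250 bases before the annotated start and 50 after it. A window was found for 9 of the 10 members, Tnc had 2 that overlap, and the one with the start farther downstream is printed. They lie at chr4:64046887-64047186 on the minus strand for Tnc, chr17:34670285-34670584 on the plus strand for Tnxb and chr13:92794769-92795068 on the minus strand for Thbs4. Capitals mark matches to 5 motifs, each searched on both strands. The TATA box was searched as the letters TATAAA and also in the longer form TATATAA. The GC box was searched as GGGCGG, the AP-1 motif was searched as TGANTCA, and the octamer motif was searched as ATGCAAAT.
Tnc: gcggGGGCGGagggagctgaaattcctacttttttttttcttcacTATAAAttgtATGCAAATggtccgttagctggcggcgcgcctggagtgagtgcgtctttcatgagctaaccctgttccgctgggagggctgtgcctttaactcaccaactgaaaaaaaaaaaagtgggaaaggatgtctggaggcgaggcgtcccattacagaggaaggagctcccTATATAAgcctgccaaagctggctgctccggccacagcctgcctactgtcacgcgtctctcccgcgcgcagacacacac
Tnxb: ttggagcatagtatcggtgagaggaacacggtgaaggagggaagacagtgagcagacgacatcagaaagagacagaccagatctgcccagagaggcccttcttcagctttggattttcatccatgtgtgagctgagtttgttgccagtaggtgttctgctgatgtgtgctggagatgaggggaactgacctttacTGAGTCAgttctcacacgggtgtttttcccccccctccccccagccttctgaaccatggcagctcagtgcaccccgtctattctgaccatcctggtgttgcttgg
Thbs4: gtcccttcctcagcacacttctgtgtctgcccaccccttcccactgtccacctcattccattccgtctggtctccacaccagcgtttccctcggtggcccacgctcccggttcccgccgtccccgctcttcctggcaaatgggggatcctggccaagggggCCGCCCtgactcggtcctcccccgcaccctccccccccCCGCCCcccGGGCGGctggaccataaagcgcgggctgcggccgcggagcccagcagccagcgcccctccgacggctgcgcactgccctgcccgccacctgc

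The Tnc window held TATATAA beginning 29 bases before the start, a GC box beginning 246 bases before it, TATAAA at 205 bases and the octamer at 195 bases. These distances depend on which start is used. The Tnc window not printed, with its start at 64047015, held no TATATAA. There the GC box, TATAAA and the octamer began 167, 126 and 116 bases before the start. Of the 32851 mouse windows of this length, 3.24% held TATATAA, 13.6% held TATAAA, 35.7% held a GC box and 1.74% held the octamer. The Tnxb window held 1 match, TGAGTCA, which began 55 bases before the start, and 7.81% of windows held TGANTCA. The Thbs4 window held 3 GC boxes, beginning 89, 51 and 42 bases before the start, and neither form of the TATA box. The printed Tnc and Tnxb windows, one for each tenascin, thus shared none of the 5 motifs. These are letters in a window and not sites shown to be bound.

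The comparison of SP2509 with vehicle asks what inhibiting LSD1 does to the exposed tongue. Of the 10 matricellular genes, Tnc was called higher with SP2509 and none was called lower (limma, Benjamini-Hochberg adjusted p under 0.05 over 17088 genes). This was 1 of 10 genes, against 9.1% of all tested genes called in either direction, 4.95% called higher and 4.15% called lower, so the share of members called was near the background. Of the 10 fold changes 8 were positive, and the median of all 10 was 0.31 on the log2 scale, against a median of 0.02 and 51.9% positive over all tested genes. Since the members were chosen with earlier results of these data known, this is a description. An unadjusted p under 0.05 was reached by 3 members, Tnc, Thbs4 and Thbs1, against 28% of all tested genes. No member separated the groups completely, while 11.7% of tested genes did, 6.54% with SP2509 wholly above vehicle and 5.11% with SP2509 wholly below. With the pairs merged, no member and 0% of 16647 tested genes passed (limma, lowest adjusted p = 0.0702 over all genes). In that fit 2 of the 10 members had an unadjusted p under 0.05, against 21.7% of genes. The split of calls over all genes depended on the scaling. It was 846 higher and 709 lower here, 666 and 1060 after quantile normalization, 1280 and 572 after TMM scaling, and 296 and 1444 after scaling to equal totals outside mitochondrial genes, which moved the median of all genes from 0.02 to -0.13.

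**Figure D1:**
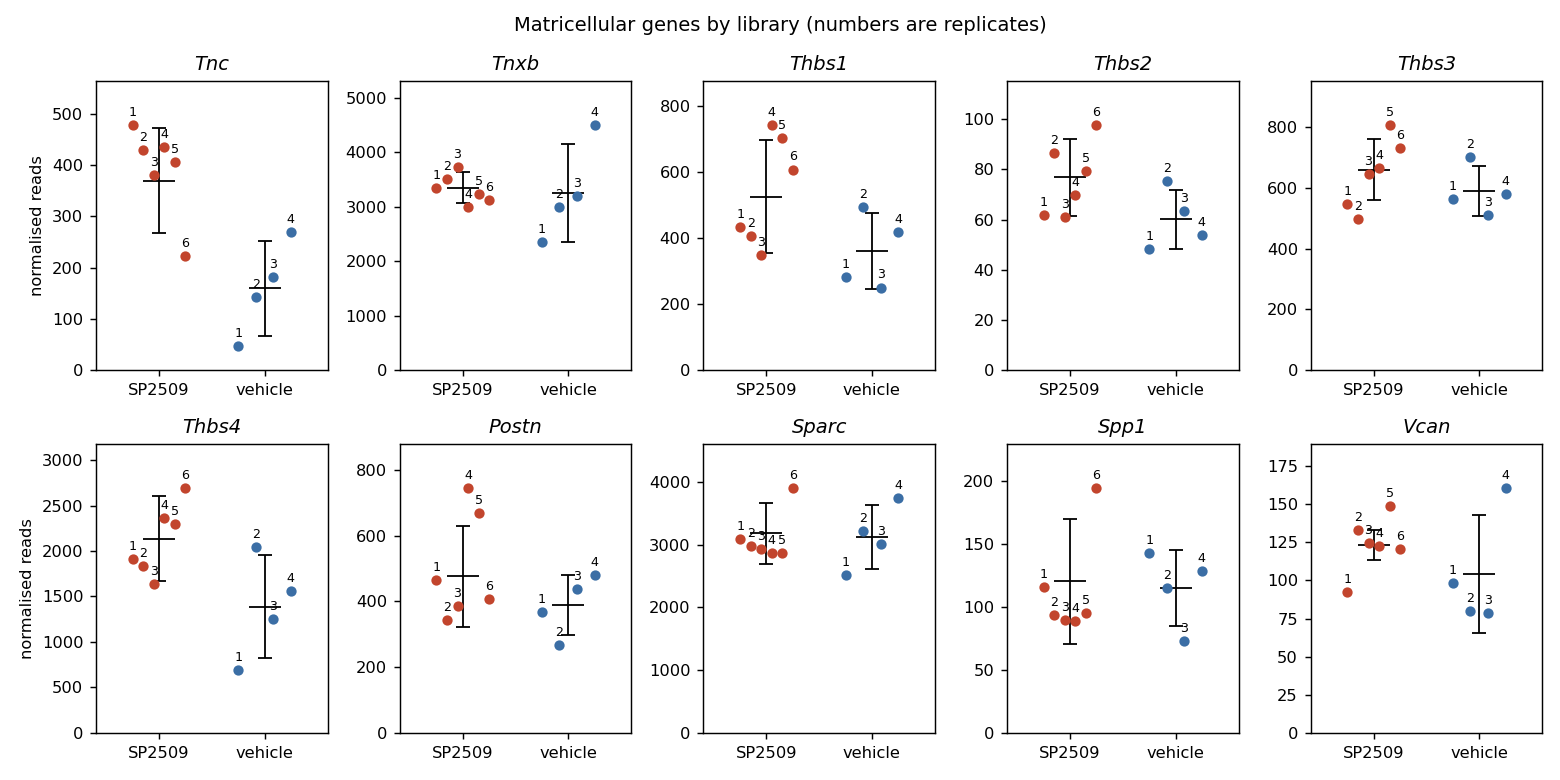
Normalised reads of each member (y axes, linear from 0) in the 6 SP2509 and 4 vehicle libraries, with replicate numbers beside the points. Bars give the mean and SD over 4 SP2509 units or 4 vehicle libraries. Tnc lies at 222 or more in every SP2509 library and at 270 or less in every vehicle library, and the groups overlap for every member.

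Tnc encodes tenascin-C, a large protein of wound edges, tendons and tumour stroma that loosens the contact of cells with fibronectin. The gene lies on chromosome 4 from 63959785 to 64047015 on the minus strand (GRCm38, as all positions of genes here). Tnc had 478, 429, 381, 435, 406 and 222 normalised reads in SP2509 replicates 1 to 6, against 46.4, 143, 182 and 270 in vehicle replicates 1 to 4. Of the 6 SP2509 libraries 5 exceeded every vehicle library, and SP2509 replicate 6 lay between vehicle replicates 3 and 4. The level averaged 369 ± 102 in SP2509 and 160 ± 92.8 in vehicle (SD, n = 4 SP2509 units and 4 vehicle libraries). The log2 fold change of the fit, a difference of mean log2 values over the 10 libraries, was 1.50 (SE 0.39, limma adjusted p = 0.0366), or 2.82-fold. With the pairs merged it was 1.40 (limma adjusted p = 0.136).

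The reads behind Tnc numbered 2955 over the 6 SP2509 libraries and 548 over the 4 vehicle libraries, with 25 in vehicle replicate 1, the lowest and the shallowest library. Without vehicle replicate 1 the log2 fold change of Tnc was 0.99 (limma adjusted p = 0.0692). The call was lost in 17 of 28 alternative settings, and over all 28 the adjusted p lay between 0.00661 and 0.136 and the log2 fold change between 0.99 and 1.83. It was lost under a covariate for fibroblast markers, with a log2 fold change of 1.06 (limma adjusted p = 0.102), and under a covariate for skeletal muscle markers, with 1.44 (limma adjusted p = 0.119). edgeR and DESeq2 on the recovered reads kept it, with adjusted p of 0.045 and 0.00661, where they called 5.34% and 9.47% of all genes higher. SP2509 replicate 6, the lowest SP2509 library for Tnc, had the lowest sum of 6 tongue keratinocyte markers, 48302 normalised reads, against 117363 to 237733 in the other SP2509 libraries. SP2509 replicates 1 to 5 exceeded every vehicle library both in Tnc and in this sum, which was 78738.5 to 116156 in vehicle. Within a group the orders of the sum and of Tnc did not always match. SP2509 replicate 3 had the highest keratinocyte sum, 237733, beside 381 normalised reads of Tnc. Vehicle replicate 1 had a sum of 103012 beside 46.4 of Tnc, and vehicle replicate 4 had 93050 beside 270. With the mean log2 value of those markers as a covariate, a setting added after seeing the data, the log2 fold change of Tnc was 1.33 (limma adjusted p = 0.0661). Beyond that fit, the part of keratinocytes in Tnc was not tested.

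Tnxb encodes tenascin-X, a protein that sits between collagen fibrils and whose loss in people causes a form of Ehlers-Danlos syndrome. It lies on chromosome 17 from 34670535 to 34719815 on the plus strand, and its pseudogene Tnxa on the same chromosome, which may share its reads, was not analysed here. Tnxb had 3348, 3504, 3725, 2999, 3241 and 3134 normalised reads in SP2509 replicates 1 to 6, against 2349, 2996, 3197 and 4501 in vehicle replicates 1 to 4. Every SP2509 library lay between vehicle replicates 2 and 4, inside the vehicle range. Means were 3351 ± 286 in SP2509 and 3261 ± 903 in vehicle (SD, n = 4 units and 4 libraries). The log2 fold change of the fit over the 10 libraries was 0.06 (SE 0.16, limma adjusted p = 0.835). It was -0.04 after quantile normalization and -0.09 after scaling to equal totals.

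Set against Tnxb inside each library, which removes the library's scaling, Tnc was higher with SP2509, so the levels of the tenascins lay closer together. The log2 ratio of Tnc to Tnxb was -2.81, -3.03, -3.28, -2.78, -2.99 and -3.81 in SP2509 replicates 1 to 6, against -5.63, -4.38, -4.13 and -4.05 in vehicle replicates 1 to 4. All 6 SP2509 libraries lay above all 4 vehicle libraries. The mean was -3.22 ± 0.43 in SP2509 and -4.55 ± 0.74 in vehicle (SD, n = 4 units and 4 libraries), and the difference over the 10 libraries was 1.43. This gave p = 0.00952 in an exact two-sided permutation test, the smallest of 210 regroupings, and 0.0286 adjusted over 3 ratios. With the pairs merged the difference was 1.32 and the exact permutation p was 0.0286, the smallest that 70 regroupings allow, or 0.0857 adjusted over the 3 ratios. With any 1 vehicle library left out the adjusted p was 0.0714 (exact permutation).

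**Figure D2:**
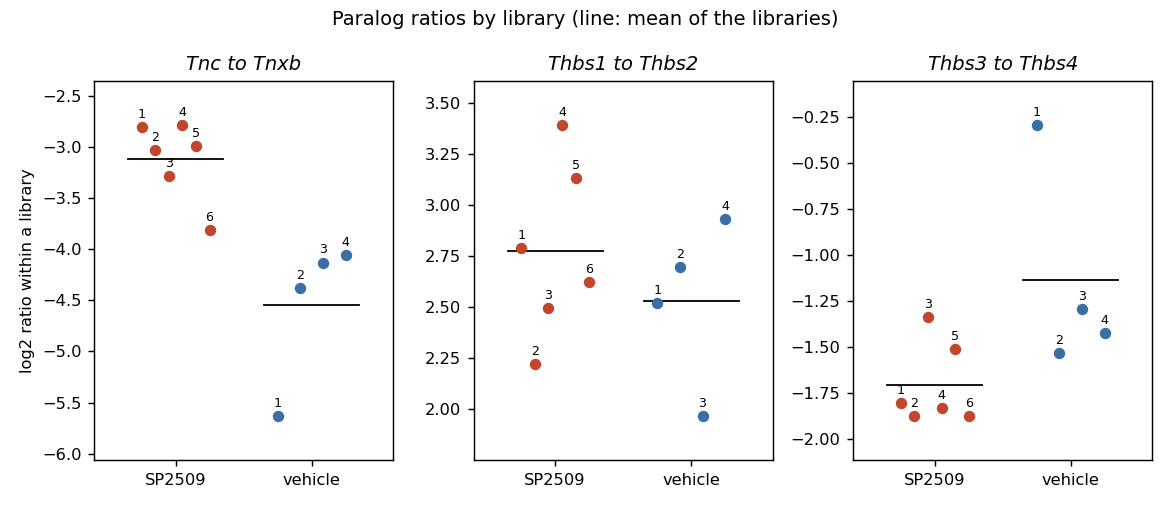
Log2 ratio of the first gene to the second within each library (y axis) for 3 pairs of related members, SP2509 at the left and vehicle at the right, with lines at the mean of the libraries. For Tnc to Tnxb the 6 SP2509 points lie between -3.81 and -2.78 and the 4 vehicle points between -5.63 and -4.05, while the groups overlap in the other pairs.

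The thrombospondins fall into a trimeric class, Thbs1 and Thbs2, which restrain blood vessel growth, and a pentameric class, which includes Thbs3 and Thbs4. Thbs1 binds CD47 and CD36 and can activate latent TGF-beta. It lies on chromosome 2 from 118111876 to 118127133 on the plus strand. Thbs1 had 433, 407, 349, 742, 703 and 608 normalised reads in SP2509 replicates 1 to 6, against 282, 494, 251 and 418 in vehicle replicates 1 to 4. SP2509 replicates 4, 5 and 6 stood above every vehicle library, and replicates 1 to 3 lay inside the vehicle range. The log2 fold change was 0.58 (SE 0.25, limma unadjusted p = 0.0401, adjusted p = 0.158), with means of 525 ± 171 in SP2509 and 361 ± 115 in vehicle (SD, n = 4 units and 4 libraries). The highest SP2509 libraries, replicates 4 and 5, were those with lingual gland RNA, and without them the log2 fold change of Thbs1 was 0.34 (limma adjusted p = 0.415).

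Thbs2, which also helps clear matrix metalloproteinases through the receptor Lrp1, lies on chromosome 17 from 14665500 to 14694235 on the minus strand. It had 61.8, 86.6, 61.1, 69.7, 79.3 and 97.7 normalised reads in SP2509 replicates 1 to 6, against 48.2, 75.2, 63.3 and 53.9 in vehicle replicates 1 to 4. Of the SP2509 libraries 3 exceeded every vehicle library and the rest overlapped them, on 571 reads in SP2509 and 180 in vehicle. On the log2 scale Thbs2 differed by 0.33 (SE 0.21, limma adjusted p = 0.318). The within-library log2 ratio of Thbs1 to Thbs2 differed by 0.25 (exact two-sided permutation p = 0.41 over 10 libraries, adjusted 0.41), with a spread of 0.37 in SP2509 and 0.41 in vehicle (SD, n = 4 units and 4 libraries). Without SP2509 replicates 4 and 5 the difference was 0.0020, and without vehicle replicate 3 it was 0.058.

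Thbs4, a thrombospondin of tendon and muscle matrix, had the highest level of the thrombospondins per exon length. It lies on chromosome 13 from 92751590 to 92794818 on the minus strand. Thbs4 had 1917, 1833, 1640, 2367, 2301 and 2695 normalised reads in SP2509 replicates 1 to 6, against 692, 2042, 1250 and 1561 in vehicle replicates 1 to 4. All 6 SP2509 libraries exceeded vehicle replicates 1, 3 and 4, but 3 of them lay below vehicle replicate 2. Means were 2136 ± 471 in SP2509 and 1386 ± 566 in vehicle (SD, n = 4 units and 4 libraries). The log2 fold change of the fit over the 10 libraries was 0.70 (SE 0.25, limma unadjusted p = 0.0171, adjusted p = 0.0968). Without vehicle replicate 1 it was 0.40 (limma adjusted p = 0.253). At an adjusted p under 0.1, 2 members, Tnc and Thbs4, passed as higher, against 10% of all tested genes.

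Skeletal muscle marker sums ordered the libraries as Thbs4 did, apart from vehicle replicate 3 and a swap of SP2509 replicates 4 and 5. SP2509 replicate 6, the highest library for Thbs4, had 744531 normalised reads summed over 8 muscle markers, the most of any library, and vehicle replicate 1, the lowest for Thbs4, had 147726, the least. Vehicle replicate 2, the highest vehicle library for Thbs4 at 2042 normalised reads, also had the highest vehicle marker sum, 342211. SP2509 replicates 1 to 3 had 1640 to 1917 normalised reads of Thbs4 beside marker sums of 279902 to 306003, whereas vehicle replicate 3 had 1250 beside 311791. With the mean log2 value of these markers, and not their sum, as a covariate the log2 fold change of Thbs4 was 0.20 (limma adjusted p = 0.584). With the keratinocyte markers as a covariate, a setting added after seeing the data, it was 0.84 (limma adjusted p = 0.0499).

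Thbs3, known in mice for its part in skeletal maturation, lies on chromosome 3 from 89215180 to 89226837 on the plus strand. Its exons share 318 bases with Mtx1 on the opposite strand, and since the sources used here give no strand setting for the counting, part of its reads may belong to that gene. Thbs3 had 547, 498, 647, 664, 807 and 733 normalised reads in SP2509 replicates 1 to 6, against 564, 703, 510 and 581 in vehicle replicates 1 to 4. The groups overlapped, with 2 SP2509 libraries above every vehicle library and 1 below all of them. The log2 fold change was 0.13 (SE 0.15, limma adjusted p = 0.597) and it was -0.02 after scaling to equal totals.

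Within a library, the log2 ratio of Thbs3 to Thbs4 was -1.81, -1.88, -1.34, -1.83, -1.51 and -1.88 in SP2509 replicates 1 to 6, against -0.29, -1.54, -1.29 and -1.42 in vehicle replicates 1 to 4. Every vehicle library lay above 4 of the 6 SP2509 libraries. The difference was -0.57 (exact two-sided permutation p = 0.0476 over 10 libraries, adjusted 0.0714) and with the pairs merged -0.54 (exact permutation p = 0.0857, adjusted 0.129). Vehicle replicate 1 stood apart from the other vehicle libraries, and without it the difference was -0.29 (exact permutation p = 0.119, adjusted 0.179).

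**Figure D3:**
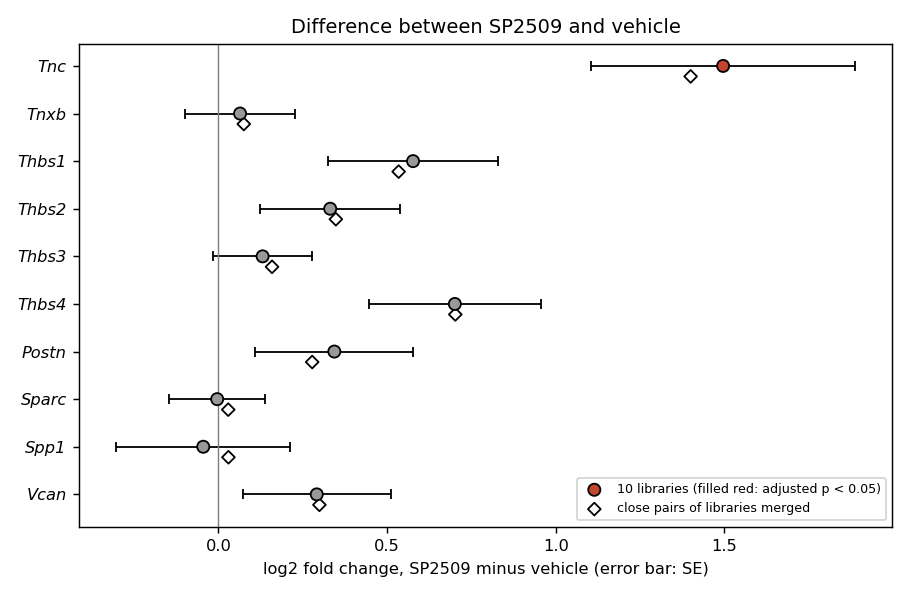
Log2 fold change of each member, SP2509 minus vehicle, from limma on log2(value + 1) over 10 libraries, with its SE (x axis). Diamonds give the value with the close pairs merged. Tnc at 1.50 is the one member called. Thbs4 at 0.70 and Thbs1 at 0.58 come next, and Tnxb, Sparc and Spp1 lie within 0.07 of 0.

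Postn and Sparc both bind collagen. Periostin, from Postn, is a fibroblast product of periodontal ligament, periosteum and healing wounds that helps assemble collagen, and it lies on chromosome 3 from 54361109 to 54391037 on the plus strand. Postn had 466, 345, 387, 746, 670 and 408 normalised reads in SP2509 replicates 1 to 6, against 369, 269, 439 and 479 in vehicle replicates 1 to 4. The gland-bearing SP2509 replicates 4 and 5 were the only libraries outside the vehicle range. The log2 fold change was 0.34 (SE 0.23, limma adjusted p = 0.358), with means of 477 ± 154 in SP2509 and 389 ± 92.3 in vehicle (SD, n = 4 units and 4 libraries). Without replicates 4 and 5 it was 0.07 (limma adjusted p = 0.85), and without vehicle replicate 2 it was 0.18.

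Sparc encodes a calcium-binding protein that escorts collagen on its way out of the cell and into fibrils. It lies on chromosome 11 from 55394500 to 55423183 on the minus strand. Sparc had 3098, 2979, 2928, 2872, 2867 and 3907 normalised reads in SP2509 replicates 1 to 6, against 2522, 3220, 3019 and 3752 in vehicle replicates 1 to 4. SP2509 replicates 1 to 5 lay close together inside the vehicle range, and replicate 6 stood above all others. Means were 3186 ± 486 in SP2509 and 3128 ± 509 in vehicle (SD, n = 4 units and 4 libraries). Sparc differed by -0.0037 on the log2 scale (SE 0.14, limma adjusted p = 0.991) and 0.05 after TMM scaling. Its highest library was 1.55 times its lowest, the smallest such ratio among the 10 genes, whereas Tnc had the largest, 10.3 times.

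A further 2 ratios set Sparc and Postn against collagens they bind. They were chosen after the collagens' values had been seen, so they restate those differences in part and are given with no test. The log2 ratio of Sparc to Col3a1 was 1.02 ± 0.34 in SP2509 and 0.28 ± 0.53 in vehicle (SD, n = 4 units and 4 libraries). The difference was 0.67 over 10 libraries, the size by which Col3a1 itself was lower. For Postn to Col1a1 the mean was -0.88 ± 0.42 in SP2509 and -1.55 ± 0.70 in vehicle (SD, n = 4 units and 4 libraries), a difference of 0.71.

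Spp1 and Vcan bind cells through CD44 and integrins. Spp1 encodes osteopontin, a phosphoprotein made by macrophages and bone cells, and lies on chromosome 5 from 104435118 to 104441050 on the plus strand. Spp1 had 115, 93.2, 89.9, 88.8, 95.2 and 195 normalised reads in SP2509 replicates 1 to 6, against 143, 115, 73.2 and 128 in vehicle replicates 1 to 4. SP2509 replicate 6 stood above all other libraries and the remaining 5 lay inside the vehicle range. Spp1 differed by -0.04 on the log2 scale (SE 0.26, limma adjusted p = 0.931), and 0.01 after TMM scaling, on 848 reads in SP2509 and 347 in vehicle. A transcript model on the same strand, Gm42793, shares 309 of its exonic bases.

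Versican, from Vcan, is a large proteoglycan that binds hyaluronan and swells the matrix around migrating cells. It lies on chromosome 13 from 89655312 to 89742509 on the minus strand. Vcan had 92.4, 133, 125, 123, 149 and 120.5 normalised reads in SP2509 replicates 1 to 6, against 98.3, 79.9, 78.8 and 161 in vehicle replicates 1 to 4. SP2509 replicates 2 to 6 exceeded vehicle replicates 1 to 3, and vehicle replicate 4 was the highest of all. On the log2 scale Vcan differed by 0.29 (SE 0.22, limma adjusted p = 0.406), on 929 reads in SP2509 and 340 in vehicle. Without vehicle replicate 4 it was 0.52 (limma adjusted p = 0.118), and without vehicle replicate 2 or 3 it was 0.18.

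Per kilobase of exon, which allows genes to be compared with each other, Sparc was the most abundant member and Vcan the least. In SP2509 the mean levels in normalised reads per kb were 841 for Sparc, 649 for Thbs4, 274 for Tnxb, 137 for Thbs3, 86.5 for Thbs1, 72.9 for Spp1, 54.8 for Postn, 47.5 for Tnc, 11.0 for Thbs2 and 8.54 for Vcan. In vehicle the means were 826 for Sparc, 422 for Thbs4, 267 for Tnxb, 122 for Thbs3, 69.7 for Spp1, 59.5 for Thbs1, 44.7 for Postn, 20.6 for Tnc, 8.59 for Thbs2 and 7.22 for Vcan. The order was the same in both groups except that Thbs1 and Spp1 changed places, and those neighbours overlapped in both, over 4 SP2509 units and 4 vehicle libraries. In SP2509 the range of Tnc lay above that of Thbs2, the next lower gene, while in vehicle the ranges of Tnc and Thbs2 overlapped. Neighbours with no overlap were also Thbs4 and Tnxb, and Tnxb and Thbs3, in SP2509. In vehicle they were Sparc and Thbs4, Tnxb and Thbs3, and Thbs3 and Spp1. The lengths are those of all annotated exons joined, so a gene with long exons that the tongue does not use is understated.

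**Figure D4:**
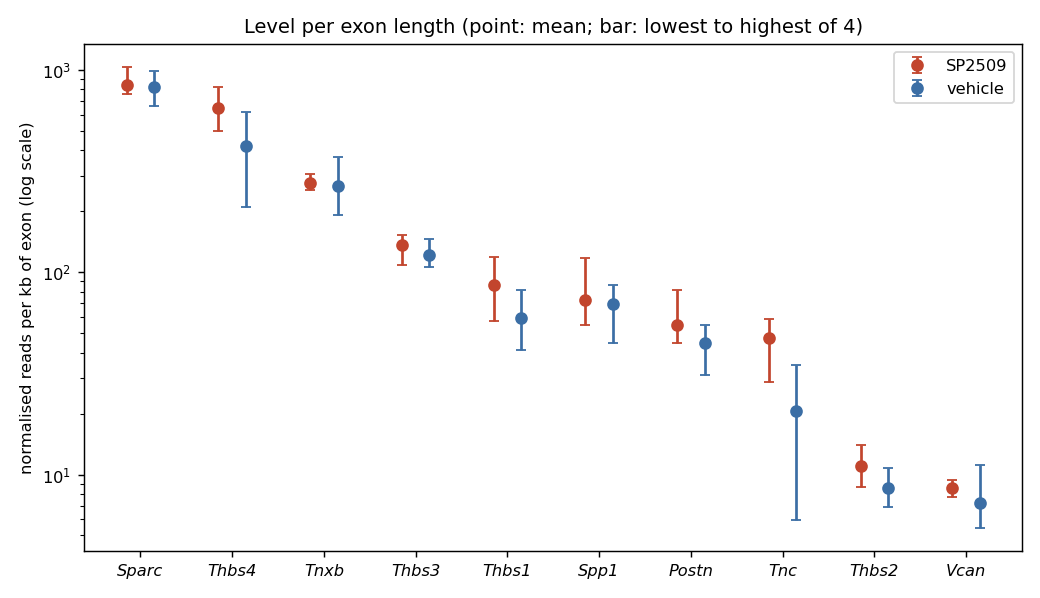
Normalised reads per kilobase of annotated exon (y axis, log scale) for the 10 members, with points at the group mean and bars over the lowest to highest of 4 SP2509 units or 4 vehicle libraries. Levels span from 841 for Sparc to 8.54 for Vcan in SP2509, and Tnc differs most between the groups, at 47.5 in SP2509 and 20.6 in vehicle.

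The members also differed in how far they varied between samples. Over the 8 units the SD of the log2 value was 1.07 for Tnc, above that of 93.6% of tested genes, and 0.21 for both Sparc and Thbs3, above that of 13.3% and 14.9% of tested genes. By the root mean square difference of centred log2 profiles over the 8 units, the genes most like Tnc were Lsr (0.374), Inhbb (0.38) and Ackr4 (0.386). Those most like Thbs1 were Fbln7 (0.15), Cilp (0.156) and Tspan6 (0.196), those most like Thbs4 were Otud3 (0.13), Timm22 (0.164) and Bphl (0.174), and those most like Sparc were Pnkd (0.0837), Zbtb4 (0.0883) and Zfp251 (0.0893). For the other 6 members the nearest genes were Trappc12 for Tnxb, Immp1l for Thbs2, Nfkb2 for Thbs3, Qpctl for Postn, Txnrd1 for Spp1 and Med18 for Vcan, at 0.0774 to 0.158. The nearest gene of Tnc was farther from it than that of any other member. This distance is not scaled to a gene's own spread, which was largest for Tnc, so it does not show an unusual profile. No member was among the 3 nearest of another.

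Relatives of the members were compared by the same fit. Of 23 related genes listed, 17 were tested, 1 was called higher, against 4.95% of all tested genes, and none lower, and their median log2 fold change was 0.30. This was Ccn2, a cysteine-rich matricellular factor induced by TGF-beta and by mechanical load. Ccn2 averaged 1087 ± 283 normalised reads in SP2509 and 548 ± 236 in vehicle (SD, n = 4 units and 4 libraries), and its ranges, 780 to 1443 in SP2509 and 260 to 827 in vehicle, overlapped. Its log2 fold change was 1.02 (SE 0.28, limma adjusted p = 0.0415, and 0.111 with the pairs merged). The next by p were Fstl1 at 0.54, Spock2 at 0.69 and Smoc2 at 0.42, none of them called (limma adjusted p of 0.132, 0.161 and 0.173).

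Of 20 receptors of matricellular proteins, 1 was called higher, against 4.95% of all tested genes, and none lower, with a median log2 fold change of 0.14. Itgb1, the beta chain shared by many matrix-binding integrins, had 1963 to 2454 normalised reads in SP2509, against 1016 to 1673 in vehicle, without overlap. Its log2 fold change was 0.65 (SE 0.15, limma adjusted p = 0.0235, and 0.0892 with the pairs merged). Itgav, the alpha chain of the integrins that bind osteopontin and periostin, had 463 to 623 normalised reads in SP2509, against 388 to 461 in vehicle, also without overlap (2 of 20 receptors, against 6.54% of all tested genes wholly above), and a log2 fold change of 0.36 that was not called (limma adjusted p = 0.0631). Itgb5 stood at 0.31 (limma adjusted p = 0.0836) and the scavenger receptor gene Stab1 at -0.28 (limma adjusted p = 0.201).

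Of 11 genes of collagens and fibronectin that members bind, 5 were called lower, against 4.15% of all tested genes, and none was called higher. Their median log2 fold change was -0.45, and for 4 of the 11 every SP2509 library lay below every vehicle library, against 5.11% of all tested genes. The fibronectin gene Fn1 and the collagen gene Col12a1 stood in the other direction, at 0.59 and 0.65 on the log2 scale, and were not called (limma adjusted p of 0.0696 and 0.111). Col5a3, a chain of the collagen that nucleates fibrils, had 343 to 613 normalised reads in SP2509, against 987 to 2715 in vehicle, and fell by 1.84 on the log2 scale (SE 0.28, limma adjusted p = 0.0118). Col3a1, the main collagen of pliable connective tissue, had 1353 to 1816 normalised reads in SP2509, against 2054 to 4138 in vehicle, and fell by 0.67 (SE 0.19, limma adjusted p = 0.0427). Col5a1, Col5a2 and Col6a1 had log2 fold changes of -0.73, -0.56 and -0.45 (limma adjusted p of 0.0261, 0.0206 and 0.0442). None of the 5 passed with the pairs merged (limma, lowest adjusted p = 0.0702). These collagens were already known to be lower in these libraries when the list was drawn up, so the count is a description.

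Of 14 tested genes around versican, 3 were called lower, against 4.15% of all tested genes, and none higher, with a median log2 fold change of -0.24. Fbn1, the fibrillin to which versican is tethered, had 331 to 389 normalised reads in SP2509, against 531 to 795 in vehicle, and differed by -0.69 on the log2 scale (SE 0.13, limma adjusted p = 0.0135). The versican-cleaving protease genes Adamts15 and Adamts5 had log2 fold changes of -1.05 and -0.59 (limma adjusted p of 0.0216 and 0.0381), and in all 3 genes SP2509 lay wholly below vehicle, against 5.11% of all tested genes. Fbln1, a versican-binding fibulin, stood at 0.80 and was not called (limma adjusted p = 0.0581). The widest difference, 2.13 for the brevican gene Bcan (chosen after its values were seen), was not called either (SE 1.65, limma adjusted p = 0.423). The 2 SP2509 libraries that stood above every vehicle library were a close pair, so the difference rests on 1 unit (94.7 ± 182 in SP2509, SD, n = 4 units). Bcan was not tested with the pairs merged. Among the rest of the 14 the lowest adjusted p with the pairs merged was 0.0717 (limma).

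Of 10 tested enzymes that process members or the matrix they bind, 1 was called lower, against 4.15% of all tested genes. This was Bmp1, the protease that trims procollagen ends, at -0.49 on the log2 scale (SE 0.13, limma adjusted p = 0.0414, and 0.144 with the pairs merged). The macrophage elastase gene Mmp12, the kinase gene Fam20c, whose product phosphorylates osteopontin, and the collagen crosslinking gene Lox had log2 fold changes of -0.84, 0.45 and 0.78 and were not called (limma adjusted p of 0.14, 0.175 and 0.29). Of 12 genes of TGF-beta ligands, receptors and responses, 1 was called higher, against 4.95% of all tested genes, namely the type II receptor gene Tgfbr2. It had 885 to 1236 normalised reads in SP2509, against 488 to 690 in vehicle, and differed by 0.90 on the log2 scale (SE 0.13, limma adjusted p = 0.0118, and 0.0702 with the pairs merged). Smad2 at 0.43 and the type I receptor gene Tgfbr1 at 0.35 were not called (limma adjusted p of 0.059 and 0.071).

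**Figure D5:**
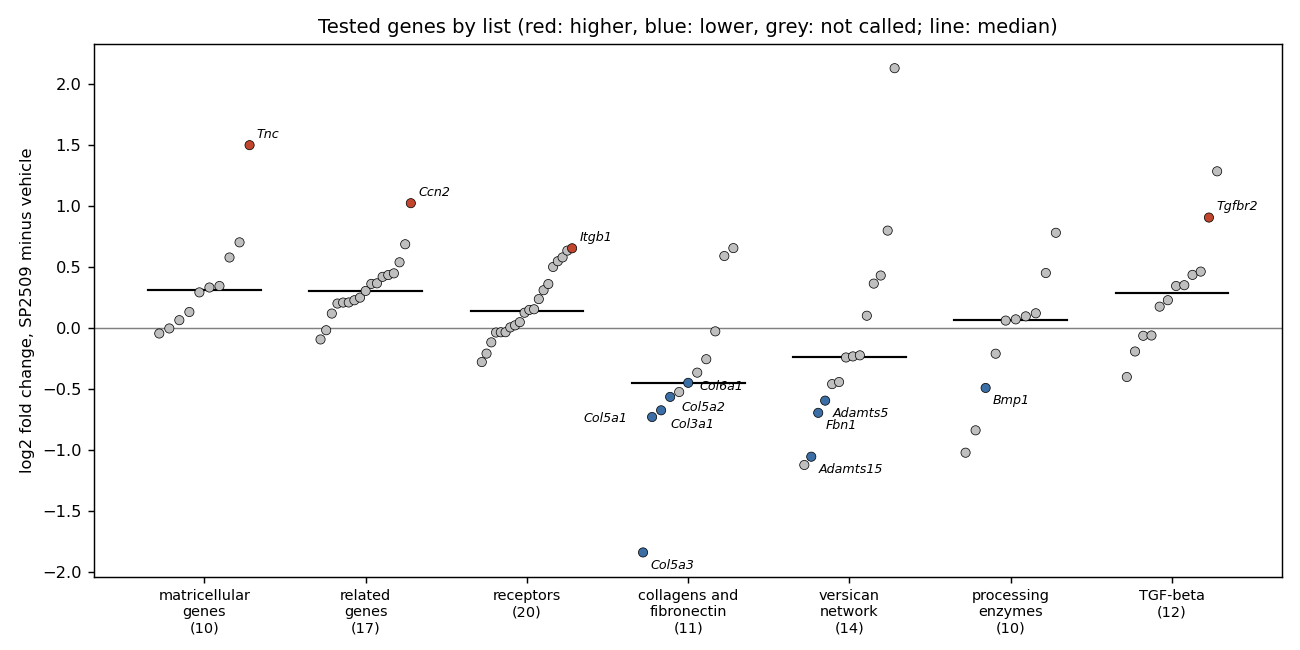
Log2 fold change, SP2509 minus vehicle, of the tested genes of each list (y axis), with called genes named. The collagens and versican network hold 5 and 3 genes called lower, at -0.45 to -1.84, and the members, related genes, receptors and TGF-beta genes hold 1 each called higher, at 0.65 to 1.50. Bmp1 at -0.49 is the processing enzyme called lower, and the uncalled point at 2.13 is Bcan.

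Markers of the cells that could supply these transcripts were summed per library. Over all tested genes 4.95% were called higher and 4.15% lower, so few or no calls in lists this short say little about a cell type. Fibroblast markers summed to 11007 to 14120 normalised reads in SP2509, against 8125 to 11830 in vehicle, and none of the 9 was called. The fibroblast markers did not move together. Dcn and Pi16, which weigh most in the sum, had log2 fold changes of 0.42 and 0.72, and Lum and Dpt had 0.64 and 0.41. Pdgfrb and Fap stood at -0.46 and -0.50, and Pdgfra, Thy1 and Col14a1 at 0.07, 0.01 and 0.02. Macrophage markers summed to 1243 to 2311 in SP2509, against 860 to 1540 in vehicle, with C1qb alone of 7 called higher. Tenocyte markers summed to 266 to 529 in SP2509, against 135 to 390 in vehicle, with none of 5 called. Smooth muscle and pericyte markers (8821 to 10312 in SP2509, 5787 to 11490 in vehicle), endothelial markers (4008 to 5500 in SP2509, 3005 to 5290 in vehicle) and adipocyte markers (4224 to 6218 in SP2509, 3343 to 5936 in vehicle) held no called gene. The adipocyte sum was mostly Fabp4, with means of 4689 in SP2509 and 4478 in vehicle. The other adipocyte markers, Adipoq, Plin1 and Cfd, had log2 fold changes of 2.37, 2.10 and 2.77 (limma adjusted p of 0.162, 0.191 and 0.0675). They rested on 21, 55 and 122 vehicle reads. Schwann cell markers summed to 3565 to 8495 in SP2509, against 7202 to 15133 in vehicle. Bone and cartilage markers were near 0, at 10.4 to 16.6 in SP2509 and 7.42 to 35.2 in vehicle. No marker was at 0 in all libraries, and apart from the fits with a covariate, the part of these cells in the results was not tested.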

How the data were processed

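The deposited signal values are counts that were divided by 1 size factor for each library. This is not labelled, but all of them (100%) are multiples, within 0.01 of a whole number, of each library's smallest nonzero value, and dividing by it gives back whole reads. A single read counts as 0.727 to 0.873 normalised reads in SP2509 and as 0.898 to 1.85 in vehicle. HISAT2, featureCounts and mm10 are named in the submitters' processing notes, without versions or a strand setting. Per the labels' protocols, poly-A RNA was primed with random hexamers. Symbols, exons and positions come from GENCODE M21.

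Groups were compared with limma 3.58.1 (R 4.3.3, trend and robust, two-sided) on log2(value + 1). It covered 17088 genes whose value reached 10 or more in 4 or more libraries, all 10 members among them. This scale understates the change of low genes. Log2 fold changes are differences of mean log2 values over libraries, so they can differ from the ratio of the means printed beside them. Ratios were tested by exact permutation with SciPy 1.17.1. Alternatives used other pseudocounts, filters and scalings, library weights, recovered reads in edgeR 4.0.16 and DESeq2 1.42.0, covariates, a replicate block, merged pairs and libraries left out. Each covariate was the mean log2(value + 1) over the markers of a list, which weighs every marker alike, and not the marker sum.

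For each pair of libraries of a group the spread, relative to counting noise, was compared between genes of 10 to 50 reads and genes of 1000 to 5000 reads. It rose by 1.03 for SP2509 replicates 1 and 2 and by 0.135 for replicates 4 and 5. SP2509 replicate 3 was the next closest, with rises of 7.53 and 9.13 against replicates 1 and 2. The vehicle pairs rose by 17.0 to 55.0 and the remaining SP2509 pairs by 30.2 to 167. Replicate 3 was kept as its own unit, so the 4 SP2509 units may not be equally independent. The design text gives 6 mice on SP2509 and 4 on vehicle, but no label ties a library to a mouse. The p-values therefore reflect differences among libraries that may be technical in part.

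Members and lists were chosen with earlier results of these data known. Named are all 10 members, up to 4 genes of smallest p and every called gene of each list, and for a member the genes most like it among those with a mean of at least 50. Markers are given as sums, with single genes named for some lists. Some genes that this rule takes, or that were called among the markers, are not reported here.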

Additional observations from a re-analysis of the deposited data

Results flagged for a closer look

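Among the 30 sets of values examined (10 members and 5 ratios in each group), 3 held a library that stood apart from the rest of its group. Chance marks about 1 set in 20 where the libraries are independent. The count cannot be held against that rate, since SP2509 holds close pairs of libraries and the ratio of Sparc to Col3a1 reuses Sparc. In all 3 sets the library that stood apart was SP2509 replicate 6. Sparc had 3907 normalised reads there, against 3098 in the next highest SP2509 library. Spp1 had 195 (194.5) there, against 115 in the next highest. The log2 ratio of Sparc to Col3a1 was 1.53 there, against 0.91 in the next highest. This library also had the highest sum of skeletal muscle markers, 744531 normalised reads, and the lowest sum of keratinocyte markers, 48302, and the part of either in these values was not tested.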

How the results depend on the processing

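Tnc was the one member called higher. The number called higher was 0 with no filter, with equal totals outside mitochondrial genes, with limma without trend and robust, with pairs merged, without SP2509 replicates 4 and 5, with the replicate block and with the muscle or fibroblast covariate, and 2 at an adjusted p under 0.1. It was 0 to 1 with each library left out in turn, and 1 only without SP2509 replicate 6 or vehicle replicate 4. With the keratinocyte covariate, added after seeing the data, it was 1, Thbs4 in place of Tnc. Nothing shows that the replicate numbers pair libraries (correlations of deviations -0.198 to 0.126, and SP2509 replicates 2 and 3 lay nearest a vehicle library of another number). Under the replicate block Tnc had a log2 fold change of 1.67 (limma adjusted p = 0.0582), and over all genes 1125 were called higher and 769 lower. No member was called lower under any of the 28 alternatives. The difference in the log2 ratio of Tnc to Tnxb was 1.32 with pairs merged and 1.32 without SP2509 replicates 4 and 5, and 1.07 to 1.60 with each library left out. It did not pass with pairs merged, without SP2509 replicates 4 and 5 or with any 1 vehicle library left out (exact permutation adjusted p of 0.0714 to 0.0857). For Thbs3 to Thbs4 the range was -0.70 to -0.29, with a pass (-0.64, exact permutation adjusted p = 0.0476) only without SP2509 replicate 3. For Postn to Col1a1 it was 0.36 to 0.88, with 0.83 without SP2509 replicate 2. Directions near 0 turned. Tnxb was -0.043 with quantile normalization, -0.087 with equal totals, -0.078 with library weights, -0.068 with the fibroblast covariate, and -0.080 to 0.23 with each library left out. Thbs3 was -0.020 with equal totals, -0.00042 under the replicate block and -0.030 with the muscle covariate. Sparc was 0.054 with TMM, 0.020 with edgeR, 0.029 merged, 0.050 without SP2509 replicates 4 and 5, 0.071 with the keratinocyte covariate and -0.10 to 0.089 with each library left out. Spp1 was 0.012 with TMM, 0.0033 with edgeR, 0.030 merged, 0.071 without SP2509 replicates 4 and 5, 0.12 with the fibroblast covariate, 0.13 with the keratinocyte covariate and -0.25 to 0.073 with each library left out. The causes were not tested. Over all genes, 846 were called higher and 709 lower, against 0 and 0 merged, 1618 and 1388 with DESeq2, 2381 and 1778 with library weights, 233 and 169 without SP2509 replicates 4 and 5, 229 and 143 with the fibroblast covariate and 1538 and 1144 with the keratinocyte covariate, and 171 to 1987 higher and 106 to 1500 lower with each library left out. Depth limits Tnc, Thbs2, Spp1 and Vcan most, with 180 to 548 reads each over the vehicle libraries.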
